A study of Mus musculus with 2 samples.

Results

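The endocytic receptor complex of visceral endoderm (VE) was followed through 5 of the 32285 genes in the count tables, picked by symbol: *Lrp2* (megalin), *Cubn* (cubilin), *Amn* (amnionless), *Dab2* (the adaptor Disabled-2) and *Lrpap1* (receptor-associated protein, RAP). All 5 were present in both libraries. Molecules of mRNA were counted as unique molecular identifiers (UMIs), summed over the cells of a population in a library and given per 1000000 UMIs of those cells (CPM). The genes were chosen as endoderm genes with a low level in the epiblast, so an excess in endoderm is a description here and not a finding.

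Megalin and cubilin are large receptors on the apical side of absorptive epithelia such as VE and the kidney proximal tubule, where they bind vitamin carriers, apolipoproteins and many other proteins and bring them into endosomes. Cubilin lacks a cytoplasmic tail and needs amnionless to reach the cell surface, RAP is a chaperone that keeps receptors of the lipoprotein receptor family free of ligand in the endoplasmic reticulum, and *Dab2* couples the receptors to clathrin. VE covers the early mouse embryo and feeds it by taking up maternal proteins until the placenta takes over.

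Single cells of E7 mouse embryos were sequenced from the 3' end of the mRNA to ask what loss of the transcriptional co-activator YAP1 in the epiblast does to early lineages. Controls were heterozygous, Sox2-Cre with Yap flox/+, although their records read WT, and *Yap1* cKO embryos were Sox2-Cre with Yap flox/flox, so both groups carry Cre and a floxed allele. Sox2-Cre acts in the epiblast and what derives from it, and extraembryonic lineages such as VE are not meant to recombine. Because Cre came from fathers with a floxed allele, the study's methods expect the paternal *Yap1* copy to be lost already in extraembryonic tissue of embryos with both alleles floxed, which cannot be told apart from the epiblast genotype in the values of VE, AVE and extraembryonic ectoderm. Embryos were pooled into 1 library per genotype, so there is no replicate, no test between genotypes was made, and the exact 95% intervals given below cover counting error only.

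After the study's limits of at least 5000 genes and at most 10% mitochondrial UMIs, 791 control and 864 *Yap1* cKO cells remained, with a median of 75715 and 80921.5 UMIs. None of the 5 genes belongs to the marker lists that define populations. VE outside the anterior held 75 control and 203 *Yap1* cKO cells, anterior visceral endoderm (AVE) 18 and 19, and epiblast 244 and 202. The 8 VE markers used for gating were *Ttr*, *Apoa1*, *Apoa4*, *Afp*, *Rbp4*, *Apob*, *Apoc2* and *Apom*. They summed to 23999 and 25106 CPM in VE outside the anterior, 4865 and 5364 in AVE, and 10.9 and 15.4 in epiblast. VE and AVE cells needed at least 1000 CPM of them and epiblast cells under 100. These sums therefore follow from the gates and check no label. *Yap1* itself measured 28.8 CPM in control and 0.988 in *Yap1* cKO epiblast, and 32.4 and 27.6 CPM in VE outside the anterior. The ratio of *Yap1* cKO to control in VE outside the anterior was 0.852 (0.717 to 1.02). In AVE *Yap1* measured 39.1 and 14.4 CPM, a ratio of 0.368 (0.205 to 0.646), from 37 and 21 UMIs. In extraembryonic ectoderm it measured 24.8 and 18.4 CPM, a ratio of 0.742 (0.628 to 0.874). Both pools are recorded as female, yet cells with at least 2 Y-linked UMIs made up 25 of 75 control and 13 of 203 *Yap1* cKO cells of VE outside the anterior, and this difference in embryos cannot be told apart from the genotype. The libraries shared 2 barcodes, and 0 of them were cells.

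The 5 genes differ widely in size and in the sequence at their start. In GENCODE M21 on GRCm38, *Cubn* spans 215 kb on the minus strand (chr2:13276338-13491813), *Lrp2* 162 kb on the minus strand (chr2:69424340-69586065), *Dab2* 141 kb on the plus strand (chr15:6299788-6440712), *Lrpap1* 14.3 kb on the minus strand (chr5:35091501-35105766) and *Amn* 5.33 kb on the plus strand (chr12:111271095-111276426). Non-coding transcripts lie on the opposite strand within *Cubn* (*Gm13270*) and *Dab2* (*Gm16311* and the pseudogene *Gm18888*). The windows below come from the RefSeq promoter table on GRCm38.p6. They run from 250 bases before to 50 bases after the start given there, on the strand of the gene. These starts can differ from those of GENCODE, and the *Cubn* window lies wholly before the GENCODE start of the gene. The windows are shown because the levels of *Cubn*, *Amn* and *Dab2* followed each other over the populations. Capitals mark matches of the motifs searched for, on either strand. *Lrp2* lies at chr2:69585980-69586279 (minus strand), *Cubn* at chr2:13491827-13492126 (minus strand), *Amn* at chr12:111270846-111271145 (plus strand), and *Dab2* has an upstream start at chr15:6299539-6299838 and a downstream start at chr15:6386498-6386797 (plus strand).
Lrp2: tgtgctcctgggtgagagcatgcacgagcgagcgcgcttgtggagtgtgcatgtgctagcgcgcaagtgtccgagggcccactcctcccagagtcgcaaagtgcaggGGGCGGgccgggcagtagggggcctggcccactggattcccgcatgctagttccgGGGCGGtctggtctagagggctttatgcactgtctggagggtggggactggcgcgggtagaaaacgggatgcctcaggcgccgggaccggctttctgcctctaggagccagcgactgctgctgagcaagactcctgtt
Cubn: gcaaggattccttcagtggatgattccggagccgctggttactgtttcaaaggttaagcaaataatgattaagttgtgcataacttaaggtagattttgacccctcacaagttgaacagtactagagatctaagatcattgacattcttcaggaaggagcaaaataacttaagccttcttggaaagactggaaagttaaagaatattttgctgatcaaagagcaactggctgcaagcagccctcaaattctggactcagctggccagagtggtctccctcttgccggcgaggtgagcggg
Amn: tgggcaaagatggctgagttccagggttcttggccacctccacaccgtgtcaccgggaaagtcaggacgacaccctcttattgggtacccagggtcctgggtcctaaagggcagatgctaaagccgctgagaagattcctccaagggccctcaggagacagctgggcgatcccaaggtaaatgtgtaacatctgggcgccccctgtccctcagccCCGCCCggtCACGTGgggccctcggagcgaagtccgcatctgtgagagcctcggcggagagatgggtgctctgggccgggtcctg
Dab2 upstream: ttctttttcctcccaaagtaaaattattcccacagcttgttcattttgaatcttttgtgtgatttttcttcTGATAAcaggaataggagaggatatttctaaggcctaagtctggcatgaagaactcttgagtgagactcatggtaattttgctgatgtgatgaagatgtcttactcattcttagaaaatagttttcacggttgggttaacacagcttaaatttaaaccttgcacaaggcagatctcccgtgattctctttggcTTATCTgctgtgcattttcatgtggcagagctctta
Dab2 downstream: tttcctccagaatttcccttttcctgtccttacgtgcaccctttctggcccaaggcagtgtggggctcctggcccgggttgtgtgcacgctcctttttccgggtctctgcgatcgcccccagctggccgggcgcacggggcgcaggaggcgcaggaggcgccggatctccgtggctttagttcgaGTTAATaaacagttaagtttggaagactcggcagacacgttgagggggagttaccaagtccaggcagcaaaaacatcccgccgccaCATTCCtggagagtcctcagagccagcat

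No motif searched was found in all of these windows. The *Lrp2* window was rich in GC (65%, with 20 CpG) and held 2 GC boxes (GGGCGG), which 35.7% of the 32851 windows of the table hold. The *Cubn* window was poorer in GC (44.3%, 5 CpG, against a median of 52.7% and 7 CpG) and matched no motif searched. The *Amn* window (62.3% GC, 15 CpG) held a GC box and an E-box (CACGTG, in 7.15% of windows). The upstream *Dab2* window was the poorest in GC (37.7%, 2 CpG) and held 2 GATA matches (AGATAA or TGATAA, in 18.6%), whereas the downstream *Dab2* window (59.3%, 19 CpG) held an HNF1 match (GTTAAT, in 7.1%) and a TEAD match (GGAATG, in 14.7%), TEAD being the family of factors that bind DNA with YAP1. The *Lrpap1* window (61.3%, 18 CpG) held 5 GC boxes. FOXA (TGTTTAC, in 3.65% of windows) and HNF4 (CAAAGTC, in 4.44%) matched none of these 6 windows. A match is a run of letters and says nothing of binding, and counts from the 3' end do not tell which *Dab2* start was used.

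All 5 genes were at least 4-fold higher in VE outside the anterior than in epiblast in both libraries, where 8.52% of the 12341 genes tested were and 10.8% were that much lower. *Cubn*, the receptor that binds intrinsic factor with vitamin B12 and apolipoprotein A-I, measured 1517 CPM in control VE (1485 to 1549) and 1591 in *Yap1* cKO VE (1572 to 1611), from 8711 and 26483 UMIs. In epiblast it left 12 UMIs in each library, 0.603 and 0.593 CPM, a ratio of VE to epiblast of 2515 (1439 to 4869) and 2684 (1536 to 5196). Over the mean of both libraries this placed *Cubn* 4th of the 12341 genes.

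*Amn*, the membrane anchor of cubilin, measured 722 CPM (700 to 744) in control and 614 (602 to 626) in *Yap1* cKO VE, against 0.754 and 0.692 in epiblast. Its ratios of 957 (580 to 1712) and 888 (529 to 1625) placed it 22nd. *Dab2* measured 2049 CPM (2012 to 2086) and 2033 (2011 to 2055) in VE outside the anterior and 12.5 and 11.8 in epiblast, ratios of 164 (145 to 187) and 172 (152 to 196). So *Cubn* and *Amn* were near the limit of counting in epiblast, while *Dab2* kept a low measurable level there.

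*Lrp2* and *Lrpap1* had smaller excesses, with a clear level in epiblast. *Lrp2* measured 316 CPM (301 to 331) and 334 (325 to 343) in VE outside the anterior, and 49.9 (46.8 to 53.1) and 27.0 (24.8 to 29.4) in epiblast. The ratios were 6.33 (5.86 to 6.85) in control and 12.4 (11.3 to 13.5) in *Yap1* cKO, whose intervals do not overlap, and it is the epiblast level that differs. *Lrpap1* measured 279 CPM (266 to 293) and 228 (221 to 235) in VE, and 33.7 and 28.7 in epiblast, ratios of 8.29 (7.57 to 9.09) and 7.94 (7.27 to 8.68). *Lrp2* stood 625th and *Lrpap1* 663rd of the 12341 genes.

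**Figure D1:**
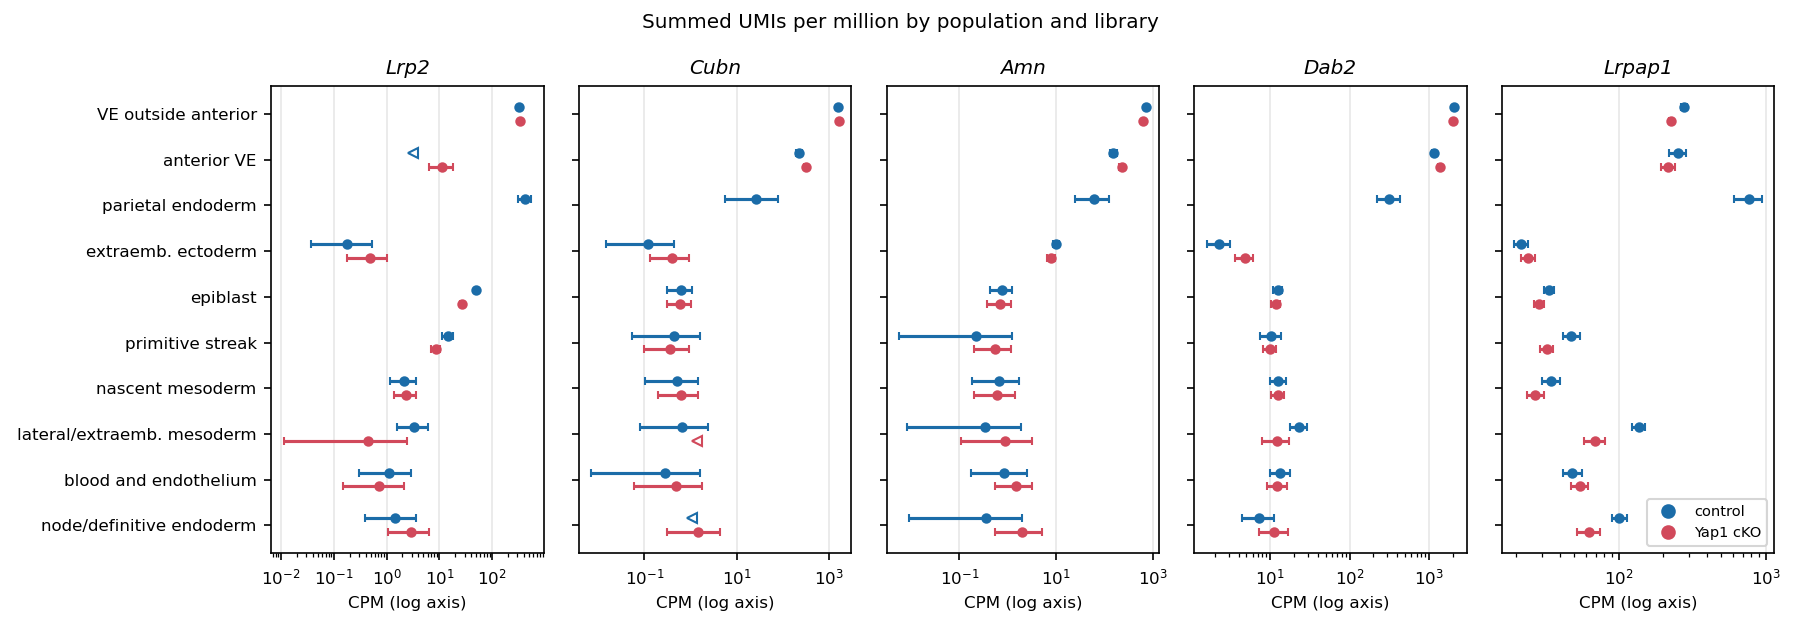
Level of each gene in CPM (log axis, a separate scale for each gene) by population and library, blue for control and red for *Yap1* cKO, with exact 95% Poisson intervals. Open triangles mark the level of 3 UMIs where no UMI was seen. *Cubn*, *Amn* and *Dab2* stand highest in both parts of VE, *Lrp2* drops out of AVE and has a second level in epiblast (49.9 and 27.0 CPM), and *Lrpap1* is found in every population.

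AVE, the signalling domain of VE that expresses the Nodal and Wnt antagonists *Cer1*, *Lefty1* and *Dkk1*, had a different makeup of the complex. Against epiblast, 4 of the 5 genes were at least 4-fold higher in AVE in both libraries (5.09% of 11411 genes tested were higher and 4.22% lower), and *Lrp2* was the exception. Control AVE held 0 *Lrp2* UMIs among 946127, which allows up to 3.17 CPM when 3 UMIs stand for none, where VE outside the anterior had 316 CPM. VE outside the anterior was thus at least 99.5-fold higher. In *Yap1* cKO, AVE had 16 UMIs, 11.0 CPM (6.27 to 17.8), and VE outside the anterior was 30.4-fold higher (18.7 to 53.3).

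Of the 19 *Yap1* cKO AVE cells, 4 held the 16 *Lrp2* UMIs, with 1, 1, 6 and 8. Their VE marker sums were 2024, 22487, 5463 and 12463 CPM in that order, so 2 of them were above the 4865 and 5364 CPM of AVE as a whole by more than 2-fold. Leaving out the cell with the most UMIs of the gene raised the ratio to 57.2. No AVE cell of either library was called a doublet. The 5 definitive endoderm markers summed to 1527 and 1666 CPM in AVE and 177 and 166 in VE outside the anterior. In node and definitive endoderm they summed to 1427 and 1827 CPM, and *Lrp2* measured 1.43 and 2.94 CPM. *Cer1*, among these markers, is also an AVE gating marker, and the definitive endoderm gate asked for AVE markers as well. The gates thus set part of this overlap, and its part in the AVE values was not tested. The 8 VE markers summed to 13.6 and 14.7 CPM in node and definitive endoderm. Its gate asks for under 100 CPM of them and that of AVE for at least 1000, so this separation is set by the gates. *Yap1* was also lower in *Yap1* cKO AVE (above), and its part in the *Lrp2* values was not tested.

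The other receptor was reduced in AVE but present. *Cubn* measured 221 CPM (192 to 253) in control and 315 (287 to 346) in *Yap1* cKO AVE, so that VE outside the anterior was 6.87-fold (5.98 to 7.91) and 5.05-fold (4.60 to 5.55) higher. *Amn* measured 153 and 228 CPM, 4.71-fold (3.99 to 5.60) and 2.70-fold (2.42 to 3.02) below the level outside the anterior. *Dab2* measured 1170.03 and 1366 CPM, 1.75-fold (1.65 to 1.86) and 1.49-fold (1.42 to 1.56) below. For *Lrpap1*, at 252 and 217 CPM, the ratios of 1.11 (0.968 to 1.28) and 1.05 (0.937 to 1.18) included 1.

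Against all of VE outside the anterior, loss in AVE thus ran from *Lrp2* over *Cubn*, *Amn* and *Dab2* to *Lrpap1* in both libraries. Intervals of neighbours in this order did not overlap, with a bound of 99.5 in place of an interval for control *Lrp2*. AVE also had lower VE marker sums. In VE cells outside the anterior with 1000 to under 10000 CPM of these markers (6 and 16 cells), *Lrp2* measured 52.9 and 155 CPM. *Cubn* measured 278 (231 to 330) and 630, *Amn* 555 and 546, *Dab2* 1410 and 1823, and *Lrpap1* 302 and 235 there. The part of the marker level in this order was not tested. With a 4-fold limit in both libraries, 2 of 5 genes, *Lrp2* and *Cubn*, were higher outside the anterior, where 1.97% of 9836 genes tested were (2.09% were that much lower). *Lrp2* stood 5th and *Cubn* 169th of these genes. The *Cubn* ratio in *Yap1* cKO rested on a few AVE cells: it was 8.34 without the cell with the most *Cubn* UMIs and 3.99 with barcodes of at least 2000 genes, which leaves *Lrp2* alone past the limit.

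Cell by cell, control VE outside the anterior ran from 0 over a median of 312 to 1109 CPM for *Lrp2*, and *Yap1* cKO VE from 0 over 331 to 1332. All 18 control AVE cells were at 0, and 15 of 19 *Yap1* cKO AVE cells. *Cubn* ran from 0 over 1601 to 4342 CPM in control VE and from 0 over 1580 to 5833 in *Yap1* cKO VE, and its AVE medians were 111 and 85.3 CPM, with single AVE cells reaching 695 and 1508. The AVE mean of *Cubn* in *Yap1* cKO therefore came from few cells with a VE-like level. *Dab2* was found in every cell of both domains, with AVE medians of 808 and 799 CPM against 1947 and 1970.

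**Figure D2:**
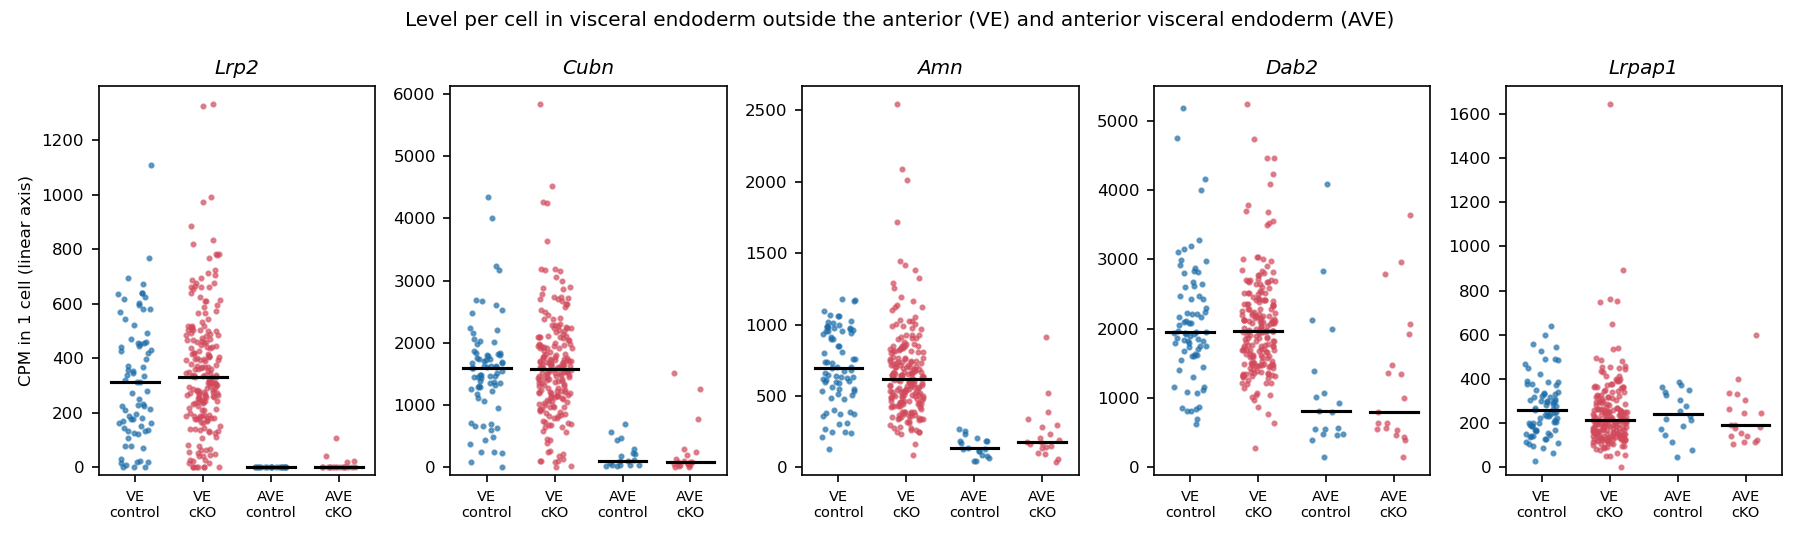
CPM of each gene in single cells (linear axis, a separate scale for each gene) of VE outside the anterior and AVE, in blue for control and red for *Yap1* cKO, with the median as a black line. *Lrp2* is at 0 in all 18 control and 15 of 19 *Yap1* cKO AVE cells, *Cubn* and *Amn* are mostly low in AVE, and *Lrpap1* overlaps between both domains.

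To set cells of unequal depth side by side, each was thinned to 38000 UMIs, which left out 74 shallower cells. The share of VE cells with an *Lrp2* UMI was then 89.9% (80.2 to 95.8) for control and 94.4% (90.0 to 97.3) for *Yap1* cKO, against 96% and 96.6% before thinning, while the other 4 genes were seen in 100% of VE cells. In AVE, 0 of 17 control cells had an *Lrp2* UMI, which by 3 counts allows a share of cells with a UMI of up to 17.6%, and 2 of 19 *Yap1* cKO cells had one (10.5%, 1.30 to 33.1). *Cubn* was seen in 2.92% and 2.06% of epiblast cells, with median depths of 72366 and 84942 UMIs against 73127 and 74744 in VE. The source of these few UMIs was not tested.

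Of both receptors, *Lrp2* alone had a level well above a few UMIs outside endoderm. After thinning, the share of epiblast cells with a UMI was 83.3% (78.0 to 87.8) for control (93.0% before thinning) and 59.3% (52.0 to 66.3) for *Yap1* cKO (82.7% before). A UMI was left in 0 of 165 control extraembryonic ectoderm cells, which allows a share of up to 1.82%, and in 1 of 94 of *Yap1* cKO, with median depths of 85039.5 and 106082 UMIs before thinning. For each *Cubn* UMI there were 0.208 and 0.210 *Lrp2* UMIs in VE outside the anterior. In epiblast there were 82.7 and 45.6, from 12 *Cubn* UMIs in each library, and the source of the epiblast UMIs was not tested. In single control epiblast cells *Lrp2* ran from 0 over a median of 43.6 to 211 CPM, and in *Yap1* cKO from 0 over 21.9 to 148.

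The *Lrp2* level dropped in steps from epiblast through the primitive streak to mesoderm. In control it was 49.9 CPM in epiblast, 14.4 (11.1 to 18.3) in primitive streak and 2.14 (1.14 to 3.66) in nascent mesoderm, and in *Yap1* cKO 27.0, 8.48 (6.85 to 10.4) and 2.30 (1.39 to 3.6). Epiblast was 3.47-fold (2.70 to 4.53) and 3.19-fold (2.56 to 4.01) above the streak, and the streak 6.71-fold (3.67 to 13.3) and 3.68-fold (2.23 to 6.38) above nascent mesoderm. Against nascent mesoderm, 1 of the 3 members with enough UMIs was at least 4-fold higher in epiblast in both libraries, *Lrp2* at 23.3 and 11.7 (2.87% of 11867 genes tested), and it stood 58th. *Dab2* (0.996 and 0.946) and *Lrpap1* (0.974 and 1.06) had about the same level in both.

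Blood and endothelium, node and definitive endoderm, and lateral and extraembryonic mesoderm had between 0.446 and 3.30 CPM of *Lrp2*, with intervals that overlap each other. In definitive endoderm, the embryonic counterpart of VE gated together with the node, *Lrp2*, *Cubn*, *Amn* and *Dab2* were at or near the level of mesoderm. *Cubn* there left 0 and 3 UMIs, *Amn* 1 and 4, and *Dab2* measured 7.15 and 11.3 CPM. Its gate asks for under 100 CPM of the VE markers, and the part of this was not tested. *Lrpap1*, at 101 and 62.8 CPM, was above nascent mesoderm (34.6 and 27.0) but not above lateral and extraembryonic mesoderm (137 and 68.7).

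*Amn* also had a place of its own, extraembryonic ectoderm, the trophoblast layer next to VE. It measured 10.0 CPM (8.56 to 11.7) in control and 7.97 (6.48 to 9.69) in *Yap1* cKO, 13.3-fold (7.84 to 24.3) and 11.5-fold (6.55 to 21.8) above epiblast. Of 4 members with enough UMIs it was the one at least 4-fold higher there (4.7% of 12290 genes tested), and *Lrp2* the one at least 4-fold lower (9.51%). After thinning, 29.1% (22.3 to 36.7) and 25.5% (17.1 to 35.6) of extraembryonic ectoderm cells had an *Amn* UMI, against 4.17% and 1.55% of epiblast cells. There were 82.5 and 20 *Amn* UMIs for each *Cubn* UMI there, from 2 and 5 *Cubn* UMIs, and 0.476 and 0.386 in VE outside the anterior. The 8 VE markers summed to 10.2 and 20.1 CPM in these cells, whose gate asks for under 100 CPM of them.

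*Dab2* was lowest in extraembryonic ectoderm, with 2.25 CPM (1.58 to 3.10) in control and 4.78 (3.65 to 6.15) in *Yap1* cKO. In the populations of epiblast origin it lay between 7.15 and 23.1 CPM, and the intervals of neighbours in this order overlapped, apart from that of control lateral and extraembryonic mesoderm at the top (18.0 to 29.2). *Lrpap1*, the chaperone, was in all populations. Below VE and AVE it was highest in lateral and extraembryonic mesoderm, with 137 CPM (124 to 150) and 68.7 (58.3 to 80.5), and in node and definitive endoderm, with 101 (89.7 to 114) and 62.8 (52.4 to 74.7), and lowest in extraembryonic ectoderm with 21.6 and 24.1. So RAP mRNA was not tied to *Lrp2* mRNA: lateral and extraembryonic mesoderm had 3.30 and 0.446 CPM of *Lrp2*.

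Parietal endoderm, the other extraembryonic endoderm, was caught only as 3 control cells and is given as values of these cells. *Lrp2* measured 413 CPM (304 to 549) from 47 UMIs, 1.31-fold (0.958 to 1.75) the level of VE outside the anterior, and was at 0 in 1 of the 3 cells. *Cubn* left 3 UMIs, all in 1 of the 3 cells, and *Amn* 7. *Dab2* measured 316 CPM (222 to 438), and *Lrpap1* 765 (613 to 943), 2.74-fold (2.18 to 3.40) above VE. Relative to VE outside the anterior, *Cubn* mRNA in these 3 cells was at 0.0174 (0.00359 to 0.0508), while *Lrp2* mRNA was not lower. In AVE it was *Lrp2* mRNA that was nearly absent, with *Cubn* mRNA reduced but present. The gate of parietal endoderm asks for under 100 CPM of the VE markers and that of AVE for at least 1000. The part of these gates in the contrast was not tested. The 3 parietal cells were still above epiblast in *Cubn*, 43.7-fold (7.92 to 162), and in *Amn*, 81.6-fold (28.2 to 213).

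Within VE outside the anterior, the genes of the complex did not vary as a single block. Over cells of a library, *Lrp2* and *Cubn* had a Spearman rho of 0.574 in control (75 cells) and 0.583 in *Yap1* cKO (203 cells), and *Amn* and *Lrpap1* one of 0.456 and 0.558. Between the pairs the values were low: *Lrp2* with *Amn* had -0.01 and 0.08, *Lrp2* with *Lrpap1* -0.27 and 0.03, and *Cubn* with *Amn* 0.05 and 0.10. *Dab2* had 0.28 and 0.42 with *Cubn* and 0.41 and 0.10 with *Lrpap1*. With the UMIs per cell, rho was 0.19 and -0.37 for *Amn* and 0.09 and -0.22 for *Lrpap1*, and the part of depth was not tested. Cells of a library share its depth and its embryos, so these are descriptions. *Lrp2* and *Cubn* also went with the mitochondrial percent of the cell, with a rho of 0.338 and 0.394 for *Lrp2* and 0.375 and 0.464 for *Cubn*, and its part in their relation was not tested. The pairs differ in gene length too. *Lrp2* and *Cubn* span 162 and 215 kb, *Amn* and *Lrpap1* 5.33 and 14.3 kb, and *Dab2* 141 kb. Counts may include introns, and the part of gene length in these values was not tested.

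Cells were also grouped by how strongly they expressed VE markers. In control, *Lrp2* measured 52.9 CPM in the 6 cells with 1000 to under 10000 CPM of the 8 VE markers, 254 in the 22 cells up to 20000, 344 in the 25 cells up to 30000 and 408 in the 22 cells above. In *Yap1* cKO the same steps gave 155, 318, 348 and 363 CPM. *Cubn* went from 278 over 1398 and 1663 to 1777 CPM in control and from 630 over 1553 and 1590.02 to 1816 in *Yap1* cKO. Over the 4 steps *Dab2* measured 1409.9, 2154, 2207 and 1919.7 CPM in control and 1823, 2309, 2018 and 1866 in *Yap1* cKO, *Amn* lay between 555 and 775 CPM in control and between 546 and 668 in *Yap1* cKO, and *Lrpap1* between 253 and 302 and between 208 and 277. Over single cells, rho with the VE marker sum was 0.446 and 0.169 for *Lrp2*, 0.41 and 0.292 for *Cubn*, 0.293 and 0.125 for *Amn*, 0.01 and -0.23 for *Dab2*, and 0.06 and -0.16 for *Lrpap1*. The low *Lrp2* and *Cubn* levels of the first step thus rest on 6 control and 16 *Yap1* cKO cells.

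Between genotypes, the complex in VE outside the anterior differed little, and 0 of 5 genes passed 1.5-fold (1.87% of 9525 genes were that much higher in *Yap1* cKO and 2.01% lower). The ratio of *Yap1* cKO to control was 1.06 (1.003 to 1.12) for *Lrp2*, 1.05 (1.02 to 1.08) for *Cubn* and 0.992 (0.972 to 1.01) for *Dab2*. *Amn*, at 0.851 (0.821 to 0.882), and *Lrpap1*, at 0.816 (0.769 to 0.865), were lower in *Yap1* cKO by more than counting error. Per cell the groups overlapped widely: *Amn* ran from 128 over a median of 696 to 1182 CPM in control and from 88.6 over 617 to 2545 in *Yap1* cKO, and *Lrpap1* from 29.1 over 259 to 639 and from 0 over 212 to 1644.

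These VE ratios differed, except for *Cubn*, between cells split by sex-linked UMIs, a difference that was not tested. In *Xist*-bearing cells (45 and 175) *Amn* had a ratio of 0.773 and *Lrpap1* of 0.688, and in Y-bearing cells (25 and 13) of 1.16 and 1.54. Within steps of the VE marker sum, *Amn* had ratios of 0.983, 0.906, 0.783 and 0.862 and *Lrpap1* of 0.779, 0.927, 0.836 and 0.716. For *Lrp2* the steps gave 2.94, 1.25, 1.01 and 0.889, the first of them from 6 and 16 cells. In AVE, 0 of 4 genes with enough UMIs passed 1.5-fold (2.57% of 4053 genes higher and 2.25% lower), with 1.43 (1.21 to 1.69) for *Cubn*, 1.49 (1.22 to 1.82) for *Amn*, 1.17 (1.08 to 1.26) for *Dab2* and 0.861 (0.726 to 1.02) for *Lrpap1*. In Y-bearing AVE cells (5 and 6) and *Xist*-bearing AVE cells (12 and 8) the ratio was 0.864 and 1.70 for *Cubn*, 1.60 and 1.45 for *Amn*, 0.656 and 1.02 for *Dab2*, and 1.10 and 0.668 for *Lrpap1*. Without the cell with the most *Cubn* UMIs the *Cubn* ratio was 0.961, and the AVE cell medians of *Cubn*, 111 and 85.3 CPM, also ran the other way.

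In epiblast, where Cre acts, *Lrp2* was the member past 1.5-fold. Its level was 49.9 CPM from 992 UMIs in control and 27.0 from 547 UMIs in *Yap1* cKO, a ratio of 0.542 (0.487 to 0.602). Of the 3 members with enough UMIs, this 1 was at least 1.5-fold lower (1.96% of 11125 genes were, and 0.944% were that much higher), and it had the 62nd lowest ratio. *Lrpap1*, at 0.852 (0.761 to 0.954), was lower by more than counting error, and *Dab2* had 0.947 (0.790 to 1.14). In the primitive streak *Lrp2* had a ratio of 0.590 (0.426 to 0.822), again the 1 of 3 past 1.5-fold (3.42% of 8983 genes lower, with 1.57% higher). *Lrpap1* had 0.680 (0.573 to 0.809), just within the limit. Over the alternatives it ran from 0.593 to 0.758, so it passed the limit in some setting. Y-bearing cells made up 30 of 60 control and 18 of 115 *Yap1* cKO streak cells, and their part was not tested.

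The lower *Lrp2* level was seen in Y-bearing and *Xist*-bearing epiblast cells alike, with ratios of 0.544 (0.449 to 0.657) and 0.532 (0.463 to 0.611). Since *Lrp2* is lower in the streak, epiblast cells were also split by their summed primitive streak markers, into under 50, 50 to under 100, 100 to under 200 and 200 to under 500 CPM. *Lrp2* measured 52.7, 49, 54.7 and 32.9 CPM in these control cells and 31.4, 27.4, 29.0 and 19.7 in *Yap1* cKO cells. The ratio was 0.596, 0.560, 0.531 and 0.598, with every upper bound at or below 0.814. Of the epiblast cells, 27 of 244 in control and 51 of 202 in *Yap1* cKO lay in the last step. The difference between the epiblast ratio and the VE ratio of 1.06 was not tested, and their intervals do not overlap.

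**Figure D3:**
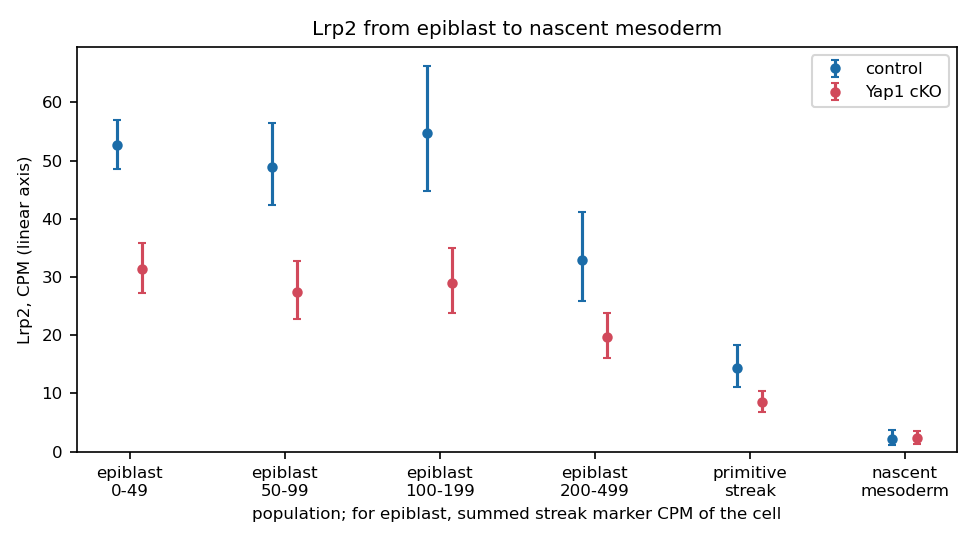
*Lrp2* in CPM (linear axis) in 4 steps of the summed primitive streak markers within epiblast, in primitive streak and in nascent mesoderm, with exact 95% Poisson intervals, blue for control and red for *Yap1* cKO. *Yap1* cKO lies below control in each epiblast step (31.4 against 52.7 CPM in the first) and in the streak, and both libraries meet near 2 CPM in nascent mesoderm.

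Outside these lineages *Lrpap1* had the lower values in *Yap1* cKO mesoderm and endoderm. The ratio was 0.503 (0.416 to 0.607) in lateral and extraembryonic mesoderm, where 3.79% of 6203 genes were at least 1.5-fold lower and 2.08% higher. It was 0.621 (0.5 to 0.768) in node and definitive endoderm, where 2.31% of 6137 were lower and 1.89% higher. Y-bearing cells made up 27 of 40 control and 4 of 30 *Yap1* cKO cells in the former, and 13 of 34 and 1 of 26 in the latter. Their part was not tested, and neither ratio was put through the alternatives. In lateral and extraembryonic mesoderm, its own markers summed to 1605 CPM in control and 1211 in *Yap1* cKO. Nascent mesoderm markers summed to 521 and 679 CPM in the same cells. The part of this difference in the *Lrpap1* ratio was not tested. In nascent mesoderm the *Lrpap1* ratio was 0.782 (0.645 to 0.949), within the limit like *Dab2* at 0.998 (0 of 2 members, against 1.64% of genes higher and 1.78% lower). In extraembryonic ectoderm it was 1.11 (0.953 to 1.30) and that of *Amn* 0.794 (0.613 to 1.02), again 0 of 2 members past the limit (0.931% of genes higher and 1.3% lower). Over the alternatives *Lrpap1* ran from 0.557 to 1.31 there and *Amn* from 0.577 to 0.856, so each passed the limit in some setting. Y-bearing cells made up 106 of 172 control and 19 of 99 *Yap1* cKO cells there, and their part was not tested. In blood and endothelium the *Lrpap1* ratio was 1.12 (0.919 to 1.38), 0 of 1 member (3.85% higher and 1.98% lower). *Dab2* in lateral and extraembryonic mesoderm, from 70 and 27 UMIs, had 0.522 (0.322 to 0.824), and *Dab2* in extraembryonic ectoderm, from 37 and 60 UMIs, 2.12 (1.39 to 3.29). Both *Dab2* counts are under the limit of 100 UMIs set for calling a gene.

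**Figure D4:**
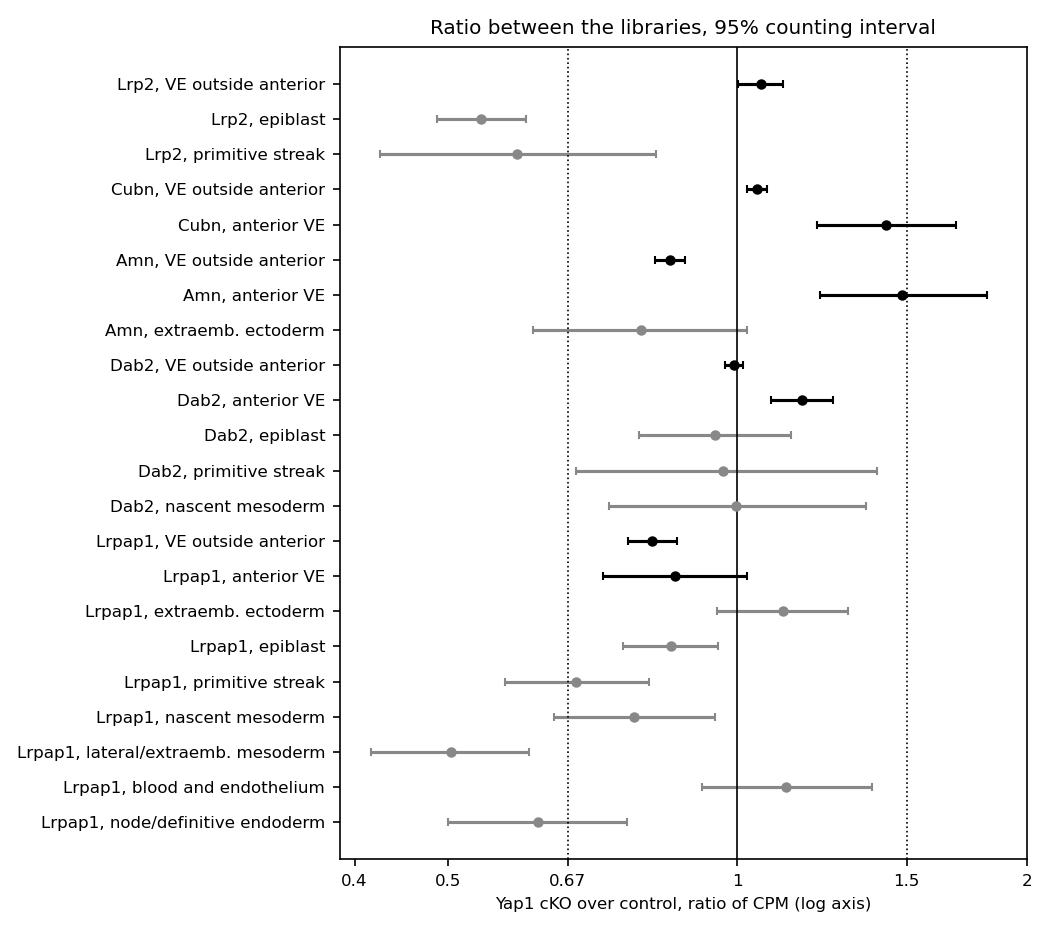
Ratio of *Yap1* cKO to control CPM (log axis) for each gene and population with at least 100 UMIs, with exact 95% intervals. Black points are VE outside the anterior and AVE, grey points the other populations, the solid line marks equal levels and the dotted lines 1.5-fold in either direction. *Lrp2* is lower in epiblast (0.542) and streak (0.590) and near 1 in VE (1.06), and *Lrpap1* is lowest in lateral and extraembryonic mesoderm (0.503).

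The wider endocytic machinery was read from lists of genes. For all 12341 genes tested, the shares at least 4-fold higher and lower in VE outside the anterior than in epiblast were 8.52% and 10.8%. Of the clathrin and adaptor list, 3 of 17 genes were at least 4-fold higher in VE outside the anterior than in epiblast in both libraries and 1 lower, with a median ratio of 1.80 against 0.924 for all genes. The higher ones were the clathrin chains *Cltc* (6.88 and 7.12) and *Cltb* (5.90 and 4.74) and the myosin *Myo6* (75.9 and 80.9), the motor that binds *Dab2*. Clathrin light chain *Clta* (1.98 and 1.87) and the AP2 subunits *Ap2a1*, *Ap2a2*, *Ap2b1*, *Ap2m1* and *Ap2s1* (1.12 to 2.68) differed less. The *Dab2* paralogue *Dab1*, which acts behind lipoprotein receptors in neurons, was the lower one, with 3.66 and 3.004 CPM in VE and 100.008 and 106 in epiblast.

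Of the other lipoprotein receptor family members, 1 of 12 was higher (*Lrp10*, 6.40 and 6.64) and 3 were lower, among them *Lrp8* (0.107 and 0.203) and *Lrp11* (0.0568 and 0.0918), with a median of 0.808. The endocytic member *Lrp1* measured 22.6 and 22.1 CPM in VE and 15.2 and 14.6 in epiblast, and the Wnt co-receptor *Lrp6* 63.4 and 54.7 against 55.1 and 53.1. Of the endosome and lysosome list, 9 of 18 were higher and 0 lower, with a median of 4.10. They were the early endosome tether *Eea1* (48.9 and 54.8), the neonatal Fc receptor *Fcgrt* (85.7 and 74.8), the proteases *Ctsb* (32.9 and 32.1) and *Ctsl* (21.6 and 20.2), *Cd63*, *Clcn5*, *Lamp1*, *Lamp2* and *Rab5c*. *Clcn5*, the endosomal chloride exchanger, had 8.57 and 9.95, whereas the transferrin receptor *Tfrc* had 0.246 and 0.333.

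Of the genes for ligands and cargo, 8 of 10 with enough UMIs were higher, but *Ttr*, *Rbp4*, *Apoa1*, *Afp* and *Apob* are gating markers and say nothing new. The remaining 3 were *Apoe* (74.5 and 88.4), *Trf* (210 and 160, the iron carrier transferrin) and *Tcn2* (54.7 and 43.4, the vitamin B12 carrier transcobalamin). The intrinsic factor gene *Cblif* left 0 UMIs in VE outside the anterior in both libraries, as did *Alb*. In the apical membrane list 6 of 8 were higher, among them the dipeptidyl peptidase *Dpp4* (399 in both) and the microvillar villin *Vil1* (178 and 137). The scaffold *Pdzk1* (62.4 and 85.9) and ezrin, *Ezr* (4.75 and 4.55), were also among them. All 9 endoderm transcription factors with enough UMIs were higher, for example *Gata4* (478 and 414) and *Foxa3* (10.3 and 11.7), at a median of 261.

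**Figure D5:**
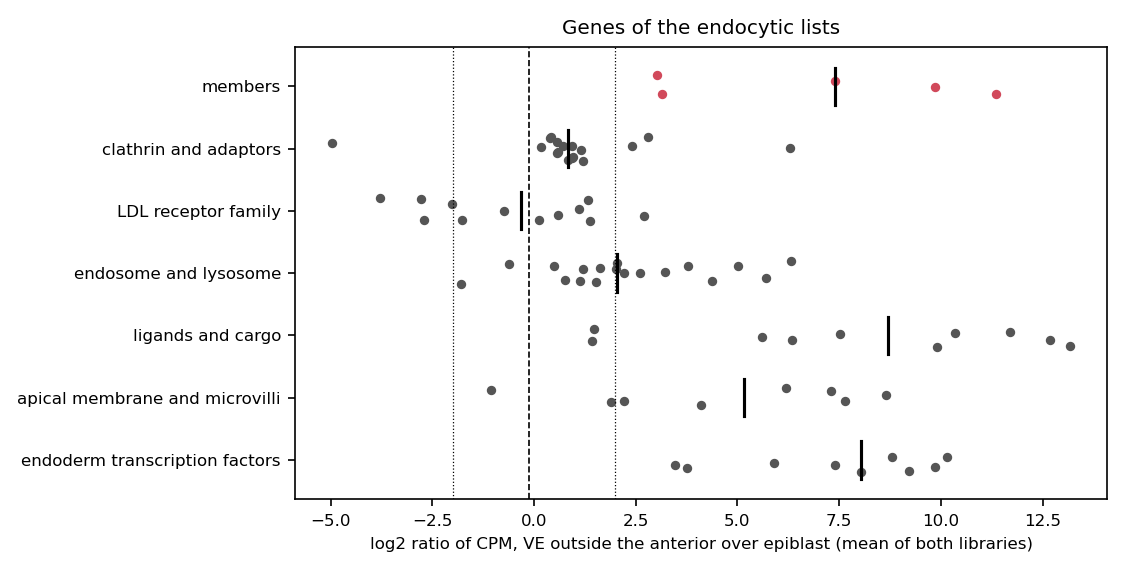
Mean log2 ratio of CPM in VE outside the anterior over epiblast for the genes of each list with enough UMIs (points, with the 5 members in red) and the median of each list (black bar). The dashed line is the median of all genes and the dotted lines mark 4-fold. Of 18 endosome and lysosome genes 9 were at least 4-fold higher in both libraries. Of 17 clathrin and adaptor genes 3 were, and 1 was that much lower.

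Both VE domains were compared for the same lists. Of all 9836 genes tested, 1.97% were at least 4-fold higher outside the anterior in both libraries and 2.09% lower. Of the clathrin and adaptor list 1 of 17 was at least 4-fold higher outside the anterior (*Cltb*, 5.05 and 6.72) and 1 lower (*Dab1*, at 3.66 and 3.004 against 70.8 and 59.0 CPM in AVE). *Myo6* had 1.34 and 1.28. Of the endosome and lysosome list 3 of 18 were higher, *Eea1* (5.42 and 7.90), *Ctsb* (9.14 and 5.61) and *Fcgrt* (17.2 and 14.8 CPM against 4.23 and 1.37). In AVE 3 UMIs make 3.17 and 2.06 CPM, so the *Fcgrt* call rests on a few UMIs. In the apical list *Pdzk1* (7.58 and 10.9), *Eps8* (12.1 and 4.19) and *Cdhr2* were higher, 3 of 8, while *Vil1* (0.905 and 1.05) and *Ezr* (1.20 and 1.10) were not. For endoderm transcription factors, 0 of 9 were higher and the 1 lower gene, *Hhex*, is an AVE gating marker. The median ratio of these 9 genes, *Hhex* included, was 0.506 against 1.005 for all genes, so as a list they were lower outside the anterior. *Hnf4a* (1.02 and 1.21) had nearly the same level in both domains.

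Genes of the 6 lists with at least 100 UMIs were also compared between genotypes in VE outside the anterior. *Vldlr* (3.31 and 6.25 CPM, ratio 1.89) and *Sox7* (10.4 and 16.2 CPM, ratio 1.55) passed 1.5-fold upward, and 0 passed it downward. They were 1 of 7 lipoprotein receptor genes and 1 of 9 endoderm transcription factors tested. Of the 16 clathrin and adaptor, 18 endosome and lysosome, 9 ligand and cargo and 8 apical membrane genes tested, 0 passed. Of all 9525 genes tested, 1.87% were that much higher and 2.01% lower. No intervals are given for the ratios of list genes. Among the list genes with a lower level were *Sorl1* (0.724) and *Gipc1* (0.736), an adaptor that binds the tail of megalin. *Myo6* (0.984), *Cltc* (0.984), *Eea1* (1.08) and *Ctsb* (0.997) were close to equal, as *Dab2* was.

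The genes most alike to each member were taken over the 18 points of 9 populations in both libraries with at least 15 cells, among 14220 genes, by Pearson r of log2(CPM + 1). Points of a population share their cell type, so r is a description. Within the complex, *Cubn* with *Dab2* had 0.979, *Cubn* with *Amn* 0.960 and *Amn* with *Dab2* 0.904, whereas *Lrp2* had 0.603 with *Cubn*, 0.485 with *Amn*, 0.554 with *Dab2* and 0.374 with *Lrpap1*. The nearest genes to *Cubn* were *Fgb* (0.996), *Apob*, *Lect2*, *Habp2* and *Slc39a5*, and plasma proteins such as those of *Fgb* and *Apob* are among their products. Those of *Dab2* were *Slc13a4* (0.983, a sulfate transporter), *Ttr*, *Slc34a2* (a phosphate transporter), *Ifi27l2b* and *Tfec*. Those of *Amn* were *mt-Co2* (0.9896), *Hsd17b2*, *Slc7a8* (an amino acid transporter), *Bst1* and *4933402E13Rik*. *Apob* and *Ttr* are VE gating markers, so the gates set part of their levels over the populations.

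*Lrp2* had other neighbours, and with lower values: *Tdh* (0.918), *Enpp2* (0.917), *Trim2*, *Gpr137b* and *Pbld1*. *Tdh*, threonine dehydrogenase, measured 262 and 277 CPM in VE outside the anterior, 2.11 and 10.3 in AVE and 16.9 and 17.3 in epiblast, and *Enpp2*, which codes for autotaxin, 38.5 and 35.1, 2.11 and 4.11, and 19.5 and 15.9. Both were lower in AVE than in VE outside the anterior and in epiblast, the pattern they were picked for. *Lrpap1* was nearest to *Cobll1* (0.967), *Pakap*, *Emid1*, *Numb* and *Ly75*. With log2(CPM + 10) the first 5 genes shared 2 with those above for *Lrp2*, 2 for *Cubn*, 1 for *Amn*, 1 for *Dab2* and 4 for *Lrpap1*.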

How the data were processed

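Cells of pooled E7 mouse embryos were measured in 2 droplet libraries, 1 control and 1 *Yap1* cKO. The deposited values are raw UMI counts per gene and barcode, made by the authors with Cell Ranger 7.1.0 on mm10. With its default settings this version also counts reads in introns, so exonic and intronic UMIs cannot be told apart, and long genes may gain from it. Levels are not ranked between genes, and UMI ratios of members serve only to set populations side by side.

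Barcodes with at least 5000 genes and at most 10% mitochondrial UMIs were kept. The study's doublet caller, scrublet (scanpy 1.11.5), marked 4 of 791 and 19 of 864 cells, which were kept and removed as an alternative. SoupX was not repeated. Cells were assigned to populations by the summed CPM of marker lists, with limits set after the distributions of the markers were seen (1000 CPM for VE, 700 for AVE, 1500 for epiblast). Set aside were 4 and 4 mixed cells, 3 and 11 with a trace of VE markers, 1 and 1 maternal, 14 and 15 unassigned, and 2 control ectoplacental cells. Python 3.11.15, numpy 2.4.6, pandas 2.3.3, scipy 1.17.1 and matplotlib 3.10.9 were used.

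Intervals at 95% are Poisson for CPM, conditional binomial for ratios and Clopper-Pearson for shares. A count of 0 was replaced by 3 counts in a ratio. Genes needed 100 UMIs over the groups compared, and were called at 4-fold in both libraries between populations and at 1.5-fold between genotypes. The scripts were tested on simulated data. Named genes are the 5 members, the genes of the 6 lists, *Yap1*, and the 5 genes most alike to each member. Transcripts that overlap a member and the genes that follow a member from cell to cell were named after their values were seen. Some genes of the lists are counted but not reported here by name. Members and lists were chosen with earlier results of these data known. Alternatives changed the gates, the limits on genes, UMIs and mitochondria, the scaling, the thinning and the pseudocount.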

Additional observations from a re-analysis of the deposited data

Results flagged for a closer look

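In VE outside the anterior, the ratio of *Yap1* cKO to control lay on opposite sides of 1 in Y-bearing cells (25 control and 13 *Yap1* cKO) and *Xist*-bearing cells (45 and 175) for 4 of the 5 genes. It was 0.6704 and 1.11 for *Lrp2*, 1.16 and 0.773 for *Amn*, 1.61 and 0.905 for *Dab2*, and 1.54 and 0.688 for *Lrpap1*, while *Cubn* had 1.04 and 1.03. These differences were not tested, since each genotype has 1 library, and a difference between embryos of a pool cannot be told apart from them.

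The ratio of *Lrp2* was 0.542 in epiblast and 0.590 in primitive streak, below 1, while in VE outside the anterior it was 1.06. The *Amn* ratio was 1.49 in AVE and 0.851 in VE outside the anterior. Neither difference was tested.

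Barcodes with at least 2000 but fewer than 5000 genes, which are not used above, also passed the VE gate, 45 in control with a median of 9555 UMIs and 141 in *Yap1* cKO with 10716. In control they had 169 CPM of *Lrp2*, 724 of *Cubn*, 938 of *Amn*, 2192 of *Dab2* and 300.5 of *Lrpap1*, and in *Yap1* cKO 155, 625, 628, 1997 and 190.1. Against the deeper VE cells, *Lrp2* was at 0.534 (0.428 to 0.659) and 0.464 (0.410 to 0.524) and *Cubn* at 0.477 (0.430 to 0.528) and 0.393 (0.369 to 0.417). *Amn* was at 1.30 and 1.02 and *Dab2* at 1.07 and 0.982 in the same barcodes.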

How the results depend on the processing

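With 1 library per genotype no replicate could be left out, and the AVE and parietal values rest on few cells (18 and 19, and 3). No paired analysis was possible because the groups share only 1 replicate number. Of the values that answer a comparison, 106 stayed within their counting interval or count limit and 18 moved, and of the others 575 stayed and 70 moved. Of the values put through the alternatives, none past its fold limit turned its direction. They came from VE outside the anterior, AVE, epiblast, primitive streak and extraembryonic ectoderm, and other populations were not put through them. Genotype ratios within 1.5-fold did cross 1 in Y-bearing or *Xist*-bearing cells, as given above for VE and AVE. The *Lrpap1* ratio in extraembryonic ectoderm crossed 1 as well, from 0.557 to 1.31 over the alternatives. The *Lrp2* ratio of VE outside the anterior to AVE in *Yap1* cKO was at least 149 with the epiblast level subtracted, which left no *Lrp2* in AVE and put 3 counts in its place, and 57.2 without the cell with the most UMIs, against 30.4. The *Cubn* ratio there was 3.99 with a minimum of 2000 genes, 6.15 as a mean over cells, 4.21 with the gate doubled and 8.34 without the cell with the most UMIs, against 5.05. With at least 2000 genes, 1 instead of 2 members was 4-fold higher outside the anterior, and in Y-bearing cells 2 instead of 0 passed 1.5-fold between genotypes in VE. A minimum of 500 UMIs gave 656 genes 4-fold higher and 590 lower in VE than in epiblast, against 1052 and 1335. With 20 or 500 UMIs, 712 or 17 genes were 1.5-fold higher in *Yap1* cKO VE (main count 178) and 787 or 20 lower (191), and in epiblast 558 or 12 higher (105) and 840 or 48 lower (218). Over all alternatives the *Lrp2* ratio of the genotypes ran from 0.532 to 0.560 in epiblast and from 0.560 to 0.633 in the streak. The alternatives without the cell with the most UMIs or with mesoderm-marked barcodes set aside were chosen after seeing the data.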

Other observations

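Genes that varied with the members from cell to cell within VE outside the anterior were also looked up, after their values were seen, among 7549 genes by the lower of the Spearman rho values of both libraries (75 and 203 cells). For *Lrp2* they were *Atp1b1* (0.687 and 0.675, a subunit of the sodium pump), the calcium pump *Atp2b1*, *Epb41l3*, *Sfmbt2* and the endosome tether *Eea1* (0.578 and 0.605). For *Cubn* they were *Gldc* (0.648 and 0.656), the endocytic motor *Myo6* (0.617 and 0.618), the proton pump subunit *Atp6v0a1*, *Gpc3* and *Gigyf2*. These values describe the cells and come with no test.

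For *Amn* the leading genes were *Apoe* (0.615 and 0.710), the lysosomal proteases *Ctsz* (0.603 and 0.615), *Ctsh* and *Ctsl*, and *Atp6ap2*. *Lrpap1* was led by *Car4* (0.692 and 0.579), *Hacd2*, *Ddost*, a subunit of the enzyme that adds sugar chains to proteins, *Itm2b* and *Apoe*. *Dab2* had lower values, led by *Pwwp3b* (0.528 and 0.462), *Nrk* and *Amot*. No gene was among the first 5 of both *Lrp2* and *Cubn*, and *Apoe* was among those of both *Amn* and *Lrpap1*.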
